A study of Mus musculus with 3 samples.

Results

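Interferon-stimulated effector genes are the genes through which cells that have sensed interferon resist viruses and intracellular microbes. A list of 42 such mouse genes was followed across 3 Agilent 1-colour (Cy3) expression arrays, using the probes whose RefSeq accession belongs to a listed gene. Of the 42 genes, 39 had a probe (26 genes with 1 probe and 13 with 2, 52 probes in all), and 34 had a probe that the scanner software marked as well above background on at least 1 array. Over the whole array, 32524 genes or accessions had a probe and 19789 were well above background on at least 1 array. The 3 genes with no matched probe were Oas1b, Mx1 and Mx2, all annotated as transcribed pseudogenes in the RefSeq build used here. The 5 genes with a probe that stayed at background throughout were Oas1g, Oas2, Oas3, Rsad2 and Ifi44.

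The RNA came from primary mouse embryonic fibroblasts (MEFs) of the C57BL/6J background, taken from an E10.0 embryo and lacking both Rb and ATM (Rb-/-;ATM-/-). The cells received a vector expressing DNMT1 shRNA (a short hairpin RNA against the maintenance DNA methyltransferase), a vector expressing ATM (the DNA damage kinase) or an empty vector. Puromycin (4 ug/ml) selected each culture over 3 days, and 4 more days of growth followed. Each condition was measured on 1 array. The double knockout is thus shared by all 3 groups, and the empty-vector cells are its control and not a wild type. The labels do not say which promoters drive the hairpin or ATM, or whether the selected cells were pools or clones. The study set out to relate ATM, pRB and the DNMT1 protein, and these comparisons show how the interferon-stimulated transcripts differed between the cells given each vector and those given the empty one.

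Interferons bind cell-surface receptors whose JAK kinases activate transcription factors. The complex ISGF3, which holds Stat2 and Irf9, binds the interferon-stimulated response element (ISRE) near the start of many target genes, while the response to interferon gamma acts mainly through the gamma-activated site (GAS). The products include Isg15, a ubiquitin-like tag, the Ifit proteins and Oas enzymes that act on viral RNA, and the Gbp and Irg GTPases that attack vacuoles holding microbes. In fibroblasts part of this programme is transcribed at a low level without added interferon.

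Promoter windows of the members, from 250 bases before to 50 bases after the annotated start, were taken from RefSeq (GRCm38.p6, a later build than that of the array design). Of the 42 genes, 33 had at least 1 window, with 42 windows in all. Usp18, Oas1b, Oas2, Mx1, Mx2, Iigp1, Parp9, Parp14 and Ifi27l2a had none. The ISRE core was searched as GAAA, any 2 bases and GAAA again, and the GAS as TTCNNNGAA, both on either strand. The ISRE core stood in 16 of 33 member genes (48.5%), against 1079 of 27025 genes of the RefSeq table (3.99%). Counted by window, 38.1% of the member windows and 3.44% of all windows held it. The following stretches are shown because they are the matches of the members whose signals differed most between arrays, or of their nearest relatives. The matched letters are in capitals with 10 bases on each side, and each stretch is written 5′ to 3′ along the strand of its gene.
Ifit1, chr19:34640775-34640804, plus strand: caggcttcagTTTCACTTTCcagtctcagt
Ifit1, chr19:34640794-34640823, plus strand: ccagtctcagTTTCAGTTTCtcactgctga
Ifit3, chr19:34583363-34583392, plus strand: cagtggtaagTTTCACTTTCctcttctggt
Ifit3, chr19:34583397-34583426, plus strand: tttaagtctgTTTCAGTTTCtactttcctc
Oas1a, chr5:120907520-120907555, minus strand: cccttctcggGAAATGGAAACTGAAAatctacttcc
Oas1g, chr5:120887606-120887641, minus strand: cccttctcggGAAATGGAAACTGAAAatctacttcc
Isg15, chr4:156200865-156200906, minus strand: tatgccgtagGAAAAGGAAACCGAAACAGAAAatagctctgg
Gbp7, chr3:142530273-142530302, plus strand: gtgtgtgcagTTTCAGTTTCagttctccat
Gbp2, chr3:142620594-142620623, plus strand: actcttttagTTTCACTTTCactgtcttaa
Gbp3, chr3:142559989-142560024, plus strand: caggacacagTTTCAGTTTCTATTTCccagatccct
The stretch of Isg15 joins 3 overlapping matches, and those of Oas1a, Oas1g and Gbp3 join 2 each. The stretches of Oas1a and Oas1g have the same letters. Ifit1 and Ifit3 each hold 2 separate matches, and those of Ifit1 lie close enough that the stretches shown overlap.

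The Ifit1 window is printed whole, since this gene carried matches of the ISRE core and had one of the larger differences between arrays that were measured above background on every array. It spans chr19:34640639-34640938 on the plus strand, with the ISRE matches in capitals.
Ifit1 promoter: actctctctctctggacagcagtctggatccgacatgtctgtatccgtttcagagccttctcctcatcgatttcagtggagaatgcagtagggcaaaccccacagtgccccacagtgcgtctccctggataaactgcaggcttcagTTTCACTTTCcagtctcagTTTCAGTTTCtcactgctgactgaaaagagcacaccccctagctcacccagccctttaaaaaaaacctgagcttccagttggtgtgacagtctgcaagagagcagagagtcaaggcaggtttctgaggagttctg
The window of Trim25, chr11:88999153-88999452 on the plus strand, is shown beside it because Trim25 had the lowest ratio of all members on the array labelled ATM vector. It held no match of either motif as searched, so it has no capitals.
Trim25 promoter: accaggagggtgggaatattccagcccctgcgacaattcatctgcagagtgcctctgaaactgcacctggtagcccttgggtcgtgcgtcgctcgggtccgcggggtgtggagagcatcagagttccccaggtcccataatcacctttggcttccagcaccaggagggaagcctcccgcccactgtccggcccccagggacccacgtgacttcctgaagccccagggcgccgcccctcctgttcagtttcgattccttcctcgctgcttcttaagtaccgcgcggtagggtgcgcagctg
The Ifit1 window held 4 CpG dinucleotides and the Trim25 window 18.

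Most ISRE matches lay close upstream of the start, and in 13 of the 16 genes with a match at least 1 began within 200 bases before it. Stat2 was matched farther upstream, and Eif2ak2 and Trim21 just after the start. The GAS letters stood in 10 of 33 member genes (30.3%), against 9.55% of all genes: Irf1, Ifit2, Oas1a, Eif2ak2, Adar, Isg20, Gbp7, Igtp, Bst2 and Ifi35. In Bst2 the GAS match overlapped the start of the ISRE stretch. The member windows held a median of 6 CpG dinucleotides and all windows a median of 7. The median ratio of observed to expected CpG was 0.29 for members and 0.38 for all windows. A match of letters is a description of the window and does not show that a factor binds there.

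**Figure D1:**
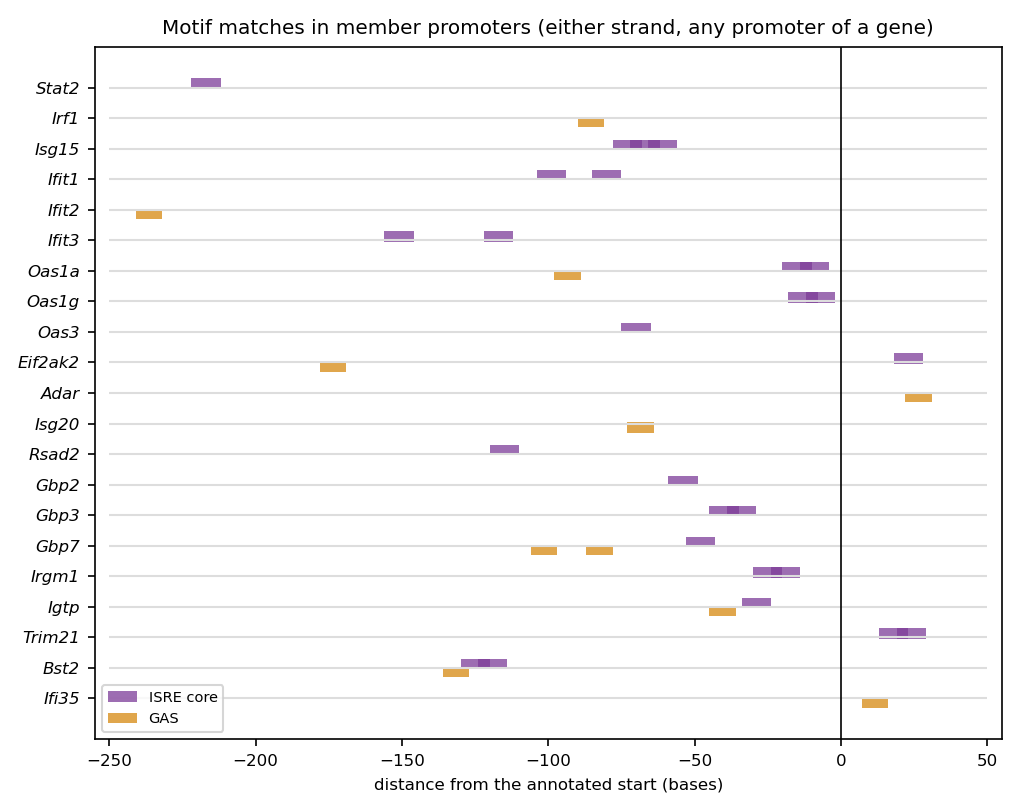
Positions of ISRE core matches (purple) and GAS matches (orange) along the promoter windows of the 21 member genes with a match of either motif, in bases from the annotated start (vertical line at 0). In 13 of the 16 genes with an ISRE match at least 1 match began within 200 bases before the start.

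Each array held 39404 probes after control spots and outlier spots were left out, and no spot was saturated. The share of probes well above background was 59.6% on the Dnmt1 shRNA array, 54.97% on the array labelled ATM vector and 55.1% on the empty-vector array. Dnmt1 itself gave 1001 with Dnmt1 shRNA and 4581 with the empty vector, and was thus 4.58-fold lower with the hairpin, as its label says. The Atm probe gave 420.0 on the array labelled ATM vector and 401.6 on the empty-vector array, so it does not check that label. It gave 383.2 with Dnmt1 shRNA. Rb1 gave 818.2 with Dnmt1 shRNA, 472.2 with the ATM vector and 504.8 with the empty vector. Both genes were well above background on all 3 arrays, although the cells are labelled as lacking them, so these probes do not show the knockout. The array labelled ATM vector came from another slide and another scan than the other two, so slide and vector cannot be told apart in that comparison. Of 10 fibroblast markers, 10 were well above background on the Dnmt1 shRNA array, 10 on the array labelled ATM vector and 9 on the empty-vector array, where Thy1 was dim, that is, not well above background. Several of them differed in level: Thy1 was at least 36.2-fold, Lum 2.49-fold and Pdgfra 2.26-fold higher with Dnmt1 shRNA, and Lum was 9.23-fold and Dcn 2.15-fold lower with the ATM vector. Of 14 leukocyte markers with a probe, 5 were well above background on the Dnmt1 shRNA array (summed signal 51090), 5 on the array labelled ATM vector (59407) and 6 on the empty-vector array (47754), most of each sum coming from Siglech. Csf1r, Itgam, Cd14, Cd3e and Siglech passed background on all 3 arrays. For Siglech this and the signal rest on 1 of its 2 probes, the other being dim on every array. Among the leukocyte markers, only Csf1r (2.04-fold higher with Dnmt1 shRNA) and Cd14 (2.07-fold lower with the ATM vector) differed by at least 2-fold. The pan-leukocyte marker Ptprc passed background on the empty-vector array alone, and 8 others, Tyrobp, Laptm5 and Spi1 among them, on none. Of 6 epithelial markers, 5 were well above background on the Dnmt1 shRNA array (summed signal 2668), 3 on the array labelled ATM vector (4812) and 3 on the empty-vector array (232.5). The part of these markers in the results below was not tested. In bulk RNA, a change in the share of cells that express a gene and a change in RNA per cell cannot be told apart.

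Values below are normalised signals. Each array's processed signal was scaled so that its 75th percentile over probes equals the mean of the 3 arrays (2158), and the ratio of normalised signals is therefore the fold difference. The error beside a value comes from the errors that the scanner software gives for the spots of 1 array. Where a gene has 2 counted probes, the value is their geometric mean, and their errors are combined as if independent. The error thus covers the measurement of that array and not the disagreement between probes of a gene. Nor does it cover the spread between cultures, for which there was no replicate. No p-value can be given. A difference of at least 2-fold (log2 ratio of at least 1 in either direction) is counted as called, and the same count over all genes is given as background. Both comparisons use the same empty-vector array, so a deviation of that array moves both. Log2 ratios are those of the first-named array minus the empty-vector array.

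Most members were within 2-fold of the empty-vector array when Dnmt1 was targeted. Of the 34 members tested, 2 were at least 2-fold higher, Oasl1 and Ifi27l2a, and 1 was at least 2-fold lower, Cmpk2. Over all 19359 genes tested, 7.68% were at least 2-fold higher and 2.23% at least 2-fold lower, so the members' shares of 5.88% and 2.94% lie near the background. With bounds in place of dim signals the members' counts were the same (2 higher, background 4.79%, and 1 lower, background 1.81%). Counting just the genes whose signal passed background on each of the 2 arrays, 1 of 32 members was higher (background 3.39%) and 0 were lower (background 0.991%). The median log2 ratio was 0.19 over the members and -0.02 over all genes. Of the 34 members 25 had a ratio above 0 (73.5%), against 48.0% of all genes. Isg15 (log2 ratio 0.91), Gbp2 (0.89), Ifi47 (0.98) and Lgals3bp (0.83) lay just under the 2-fold line. For 16 members the log2 ratio was smaller than its own measurement error. It exceeded 2 errors in 12 members that were higher and in 2 that were lower, Cmpk2 and Ifit1. The same counts over all genes were not made, so these counts against the error have no background. The sign of the small ratios depended on the scaling: with each array centred on its median, 14 of 34 members (and 26.0% of all genes) were above 0. The median of the members was then -0.050 and that of all genes -0.25, since this scaling moves every gene by the same amount.

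On the array labelled ATM vector the members spread in both directions. Of the 33 members tested, 2 were at least 2-fold higher, Ifi27l2a and Parp14. Another 8 were at least 2-fold lower: Trim25, Oas1a, Cmpk2, Ifit1, Usp18, Gbp7, Oasl2 and Ifit3. Over all 18463 genes tested, 8.45% were at least 2-fold higher and 7.96% at least 2-fold lower, beside 6.06% and 24.2% of the members. Oas1a, Cmpk2 and Gbp7 were not well above background on the array labelled ATM vector, so their ratios have only a bound there. With bounds, 6 members were at least 2-fold lower (18.2%, background 6.36%). With bounds the count higher stayed at 2 (background 6.95%). Counting just the genes whose signal passed background on each of the 2 arrays, 5 of 30 members were lower (16.7%, background 4.38%) and 2 higher (background 5.69%). The median log2 ratio was -0.13 over the 33 members, against 0.05 over all genes, and 0.13 over the 30 members well above background on both arrays. Gbp3 (log2 ratio -0.86), Bst2 (0.82), Isg20 (0.83), Xaf1 (0.87) and Samd9l (0.91) lay just under the 2-fold line. The log2 ratio exceeded 2 measurement errors in 11 members that were higher and 14 that were lower, and was under its error in 5. These counts against the error were not made over all genes, so they have no background to be read against.

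**Figure D2:**
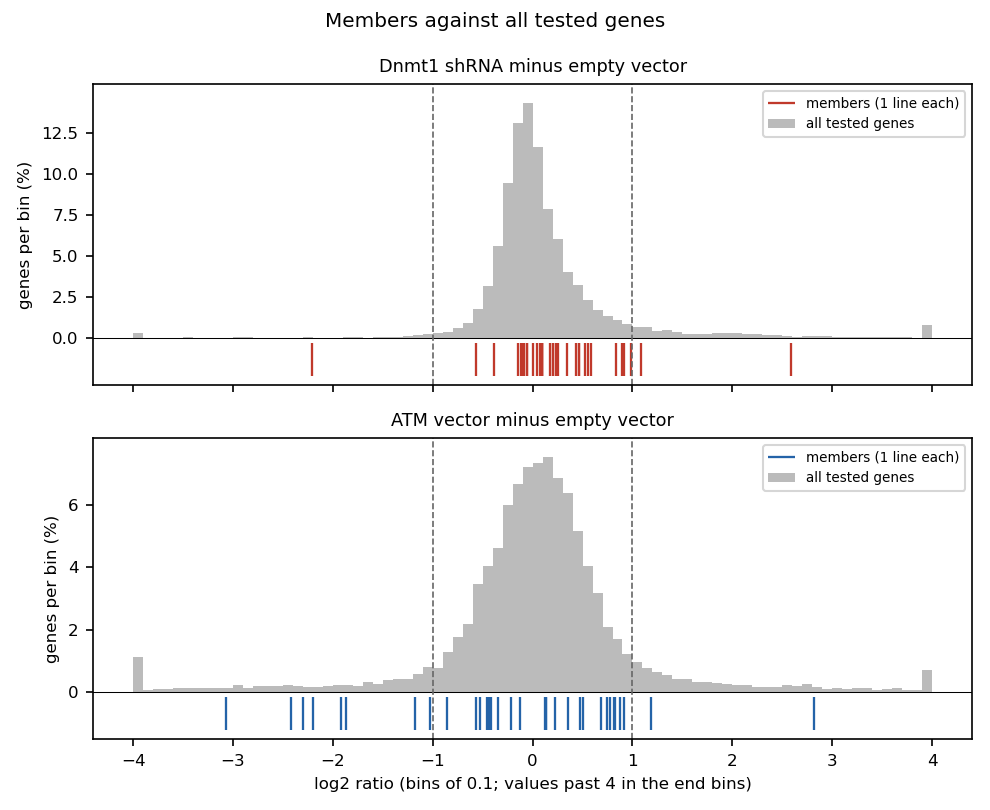
Log2 ratios of the members (coloured lines, 1 per gene) below the distribution over all tested genes (grey bars, percent of genes per bin of 0.1), for the Dnmt1 shRNA array (top) and the array labelled ATM vector (bottom), each minus the empty-vector array. Dashed lines mark 2-fold; the members' medians are 0.19 in the upper panel and -0.13 in the lower one.

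The transcription factors of the pathway differed by less than 2-fold in both comparisons. Stat2, a subunit of ISGF3, had a normalised signal of 2932 ± 293 on the Dnmt1 shRNA array, 3608 ± 361 on the array labelled ATM vector and 2601 ± 260 on the empty-vector array. Irf9, its DNA-binding subunit, gave 3286 ± 329 with Dnmt1 shRNA, 1988 ± 199 with the ATM vector and 2857 ± 286 with the empty vector. These correspond to log2 ratios of 0.17 and 0.47 for Stat2, and of 0.20 and -0.52 for Irf9, so these ISGF3 subunits had opposite signs on the array labelled ATM vector. Irf1, a transcription factor induced mainly by interferon gamma, gave 9807 ± 981 with Dnmt1 shRNA, 9649 ± 965 with the ATM vector and 6819 ± 682 with the empty vector. Its log2 ratios were 0.52 and 0.50, each with an error of 0.20, from the brighter of its 2 probes. The other Irf1 probe was dim on every array.

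Of the genes of Isg15 conjugation, 0 of 3 were called with Dnmt1 shRNA, and 2 of 3 were lower on the array labelled ATM vector, where 7.96% of all genes were. Isg15, the ubiquitin-like protein that is attached to other proteins, gave 3975 ± 281 with Dnmt1 shRNA, 1580 ± 113 with the ATM vector and 2114 ± 151 with the empty vector. It was thus 1.88-fold higher with Dnmt1 shRNA and 1.34-fold lower with the ATM vector, and its 2 probes had log2 ratios of 0.90 and 0.92 in the first comparison and of -0.29 and -0.55 in the second. Usp18, the protease that removes Isg15 and also dampens the type I interferon receptor, gave 169.8 ± 17.8 with Dnmt1 shRNA, 42.05 ± 8.14 with the ATM vector and 158.8 ± 17.6 with the empty vector. The array labelled ATM vector stood apart from the other two, with a value 3.78-fold below the empty vector. With normexp background correction, however, the log2 ratio was -0.98, under the 2-fold line. This correction adds an offset of 50 to every signal, which by construction draws ratios towards 0, most at low signals. Trim25, a ubiquitin and Isg15 ligase that activates the RNA sensor RIG-I, gave 3465 ± 347 with Dnmt1 shRNA, 402.1 ± 41.2 with the ATM vector and 3370 ± 337 with the empty vector. It was 8.38-fold lower with the ATM vector (log2 ratio -3.07 ± 0.21), and 2.07% of all genes had a lower ratio. With Dnmt1 shRNA its ratio was 1.03-fold. Outside the list, Uba7, the activating enzyme of the same conjugation pathway, and Ube2l6, its conjugating enzyme, had log2 ratios of 1.39 and 0.33 with the ATM vector.

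The Ifit genes encode proteins that bind viral RNA ends and block its translation, and they lie in a cluster on chromosome 19. None of the 3 was called with Dnmt1 shRNA, and 2 of 3 were lower on the array labelled ATM vector, beside 7.96% of all genes. Ifit1 gave 576.7 ± 57.9 with Dnmt1 shRNA, 186.5 ± 20.5 with the ATM vector and 854.7 ± 85.8 with the empty vector. It was 1.48-fold lower with Dnmt1 shRNA (log2 ratio -0.57 ± 0.20) and 4.58-fold lower with the ATM vector (-2.20 ± 0.21). Ifit3 gave 1418 ± 142 with Dnmt1 shRNA, 502.9 ± 50.8 with the ATM vector and 1028 ± 103 with the empty vector. Its log2 ratios were 0.46 and -1.03, the second being -0.85 and no longer 2-fold with normexp. It was on the other side of the empty vector from Ifit1 when Dnmt1 was targeted. Ifit2 gave 1821 ± 182, 1436 ± 144 and 1973 ± 197 on the Dnmt1 shRNA, ATM vector and empty-vector arrays, within 2-fold in both comparisons. The probe of Ifit3 may also bind transcripts of the near-identical Ifit3b, whose own probe had a log2 ratio of -1.42 with the ATM vector.

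The Oas family makes 2′-5′ oligoadenylates that switch on the antiviral ribonuclease RNase L, and the Oasl proteins are its relatives. Only 3 of the 7 listed members were well above background anywhere. Oasl1, which in mice limits translation of the interferon regulator Irf7, gave 213.2 ± 21.99 on the Dnmt1 shRNA array. It was not well above background on the array labelled ATM vector (23.1 ± 7.7) or on the empty-vector array (35.5 ± 8.7). The ratio to the empty vector was 6.01-fold (log2 2.59), with the dim array at its own signal, which lay above the lowest signal well above background. It was 2.35 on the log2 scale with median scaling and 1.51 with normexp. Oasl1 was not tested in the other comparison. Oas1a gave 114.9 ± 12.8 with Dnmt1 shRNA, a dim 23.8 ± 9.0 with the ATM vector and 127.1 ± 14.9 with the empty vector. It was at least 3.79-fold lower with the ATM vector. Oasl2 gave 116.8 ± 13.2 with Dnmt1 shRNA, 48.4 ± 10.2 with the ATM vector and 109.4 ± 13.7 with the empty vector, and was 2.26-fold lower with the ATM vector. With normexp that log2 ratio was -0.49, under the 2-fold line, and that of Oas1a -1.09. Oas1a and Oasl2 were therefore lower on the array labelled ATM vector, while both lay within their measurement error of the empty vector on the Dnmt1 shRNA array. The Oas1 genes are close copies, and a probe of 1 of them may bind transcripts of others. Oas1c and Oas1f, relatives outside the list, had log2 ratios of -2.40 and -1.93 with the ATM vector and of 0.02 and 0.00 with Dnmt1 shRNA.

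**Figure D3:**
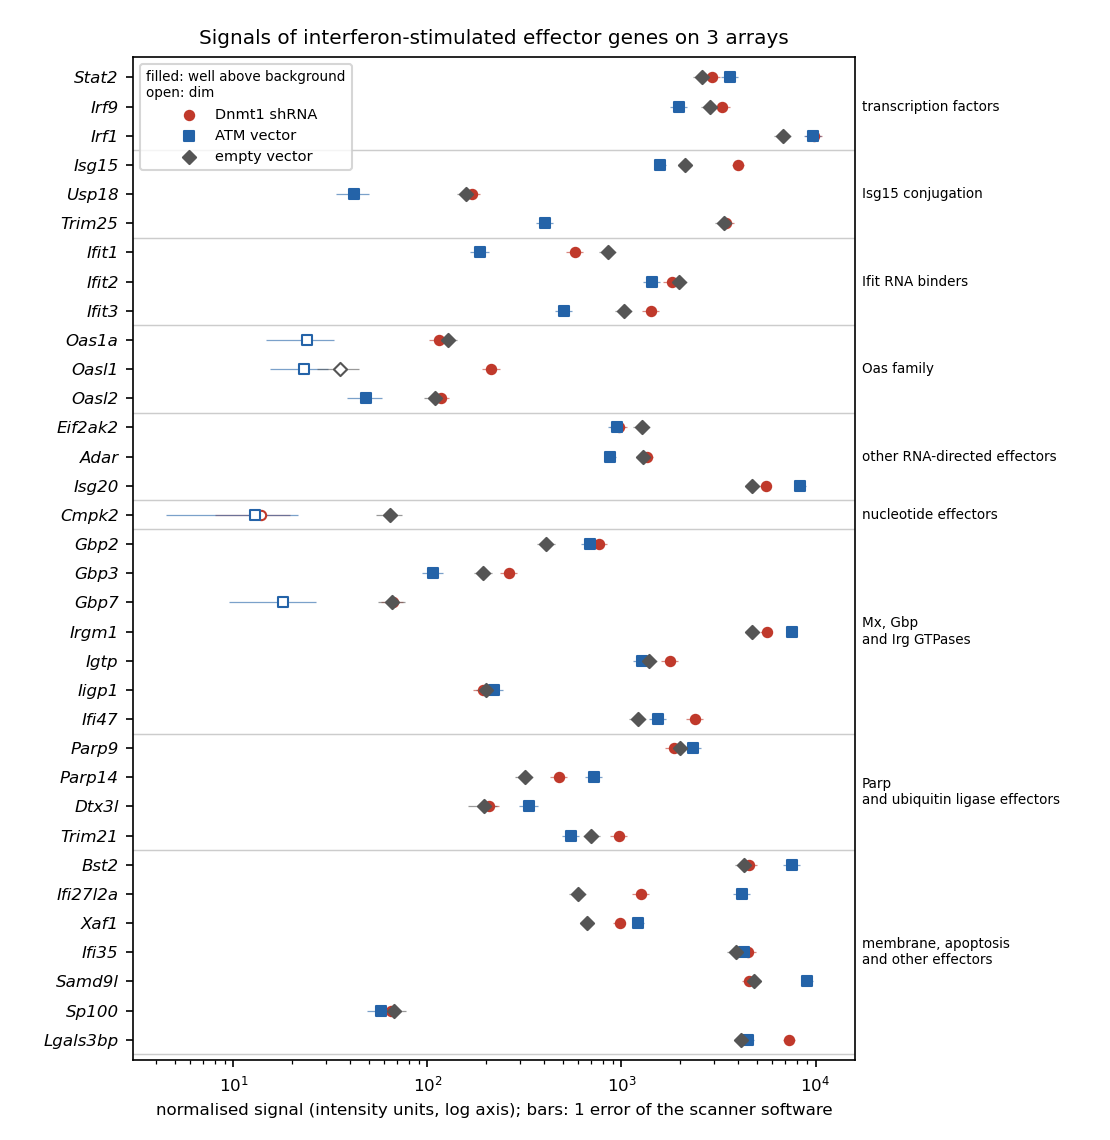
Normalised signal (intensity units, log axis) of the 34 members well above background on at least 1 array, grouped by role. Circles are the Dnmt1 shRNA array, squares the array labelled ATM vector and diamonds the empty-vector array. Open symbols are not well above background. Bars are 1 measurement error, combined from the errors of the scanner software. Trim25, Ifit1, Usp18 and Oas1a lie left of the other arrays on the array labelled ATM vector, and Ifi27l2a lies right.

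The other RNA-directed effectors were within 2-fold in both comparisons. Eif2ak2, the kinase PKR that halts translation when it binds double-stranded RNA, gave 973.9 ± 97.5 with Dnmt1 shRNA, 942.8 ± 94.6 with the ATM vector and 1274 ± 128 with the empty vector. Both log2 ratios were negative, at -0.39 and -0.43 with an error of 0.20 each. Adar, the adenosine deaminase that edits double-stranded RNA, gave 1359 ± 96 with Dnmt1 shRNA, 876.2 ± 62.2 with the ATM vector and 1295 ± 92 with the empty vector. Its 2 probes had log2 ratios of -0.62 and -0.50 with the ATM vector. Isg20, an exonuclease that degrades single-stranded RNA, had log2 ratios of 0.23 with Dnmt1 shRNA and 0.83 with the ATM vector.

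Cmpk2, a mitochondrial nucleotide kinase next to Rsad2 on chromosome 12, was lower on both arrays than on the empty-vector array. Its signal was a dim 13.9 ± 5.8 with Dnmt1 shRNA, a dim 12.98 ± 8.49 with the ATM vector and 63.9 ± 9.8 with the empty vector. It was at least 2.44-fold lower with Dnmt1 shRNA and at least 1.91-fold lower with the ATM vector. With normexp the log2 ratios were -0.63 and -0.83, both under 2-fold. The difference thus rests on a low signal on the empty-vector array, and the other Cmpk2 probe was dim on all 3 arrays. Rsad2, or viperin, which makes a chain-terminating nucleotide, stayed at background on all 3 arrays.

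The GTPases of the list that had a tested probe are 3 guanylate-binding proteins (Gbp) on chromosome 3 and 4 immunity-related GTPases (Irg), both of which coat vacuoles holding microbes. None of the 7 was called on the Dnmt1 shRNA array, where 6 of 7 ratios were above 0 with a median of 0.34, beside 48.0% of all genes above 0. With median scaling each ratio was 0.24 lower, which turned Gbp7 to -0.23. Gbp2 gave 762.5 ± 76.4 with Dnmt1 shRNA, 687.9 ± 69.2 with the ATM vector and 410.1 ± 41.7 with the empty vector, so that it was higher in both comparisons, by 1.86-fold and 1.68-fold. Gbp3 gave 262.4 ± 26.8 with Dnmt1 shRNA, 106.98 ± 13.1 with the ATM vector and 193.8 ± 20.8 with the empty vector, with log2 ratios of 0.44 and -0.86. Gbp7 gave 66.3 ± 8.8 with Dnmt1 shRNA, a dim 18.1 ± 8.5 with the ATM vector and 66.0 ± 10.4 with the empty vector. It was at least 1.97-fold lower with the ATM vector, which is under the 2-fold line although its measured ratio passed it. The 3 neighbouring Gbp genes thus had both signs on the array labelled ATM vector. Among the Irg genes, Ifi47 was highest with Dnmt1 shRNA (2399 ± 240, against 1213 ± 121 with the empty vector) and gave 1548 ± 155 with the ATM vector. Irgm1, which regulates the other Irg proteins, gave 5590 ± 395 with Dnmt1 shRNA, 7542 ± 533 with the ATM vector and 4693 ± 332 with the empty vector. Its 2 probes had log2 ratios of 0.71 and 0.66 with the ATM vector. Igtp and Iigp1 had log2 ratios between -0.13 and 0.34 over both comparisons.

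Of the 4 Parp and ubiquitin ligase effectors, Parp14 alone was called, as higher with the ATM vector, where 8.45% of all genes were. Parp14, an ADP-ribosyltransferase of the macrodomain group, gave 476.8 ± 48.1 with Dnmt1 shRNA, 719.9 ± 72.6 with the ATM vector and 317.0 ± 32.8 with the empty vector. It was 1.504-fold higher with Dnmt1 shRNA and 2.27-fold higher with the ATM vector, where normexp gave a log2 ratio of 0.96, just under the line. Dtx3l and Parp9 form a ubiquitin ligase complex and had log2 ratios of 0.77 and 0.23 with the ATM vector, and of 0.09 and -0.11 with Dnmt1 shRNA. The 2 Dtx3l probes had log2 ratios of 0.57 and 0.98 with the ATM vector, the second from a probe that was dim on the empty-vector array. Trim21, an antibody receptor in the cytosol with ligase activity, had log2 ratios of 0.46 with Dnmt1 shRNA and -0.35 with the ATM vector.

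The remaining effectors act at membranes, in cell death or in nuclear bodies. On the array labelled ATM vector their median log2 ratio was 0.82. There 6 of 7 ratios were above 0 (54.0% of all genes) and 1 was called higher (8.45% of all genes). The Dnmt1 shRNA array gave a median of 0.20 with 1 called higher, beside 7.68% of all genes. Ifi27l2a, a small membrane protein, was the called gene in both, although its log2 ratio with Dnmt1 shRNA was 0.85 with median scaling. It gave 1257 ± 126 with Dnmt1 shRNA, 4183 ± 418 with the ATM vector and 593.4 ± 59.8 with the empty vector. It was 2.12-fold higher with Dnmt1 shRNA and 7.05-fold higher with the ATM vector, from 1 probe that may also bind the related Ifi27l2b. Bst2, or tetherin, which holds budding viruses at the cell surface, gave 4554 ± 455 with Dnmt1 shRNA, 7550 ± 755 with the ATM vector and 4278 ± 428 with the empty vector. Samd9l, a restriction factor of poxviruses, gave 4516 ± 319 with Dnmt1 shRNA, 9055 ± 640 with the ATM vector and 4804 ± 340 with the empty vector. Both thus stood near the empty vector with Dnmt1 shRNA and were 1.76-fold and 1.88-fold higher with the ATM vector. Xaf1, a proapoptotic partner of the inhibitor XIAP, gave 977.1 ± 69.3 with Dnmt1 shRNA, 1222 ± 87 with the ATM vector and 667.1 ± 47.5 with the empty vector. Its probes disagreed in size, with log2 ratios of 0.27 and 1.47 with the ATM vector and of 0.36 and 0.74 with Dnmt1 shRNA. Lgals3bp, a secreted glycoprotein, gave 7340 ± 519 with Dnmt1 shRNA, 4501 ± 318 with the ATM vector and 4118 ± 291 with the empty vector, so it was 1.78-fold higher with Dnmt1 shRNA and 1.09-fold higher with the ATM vector. Ifi35 and Sp100, a component of PML nuclear bodies, had log2 ratios between -0.22 and 0.20 over both comparisons.

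**Figure D4:**
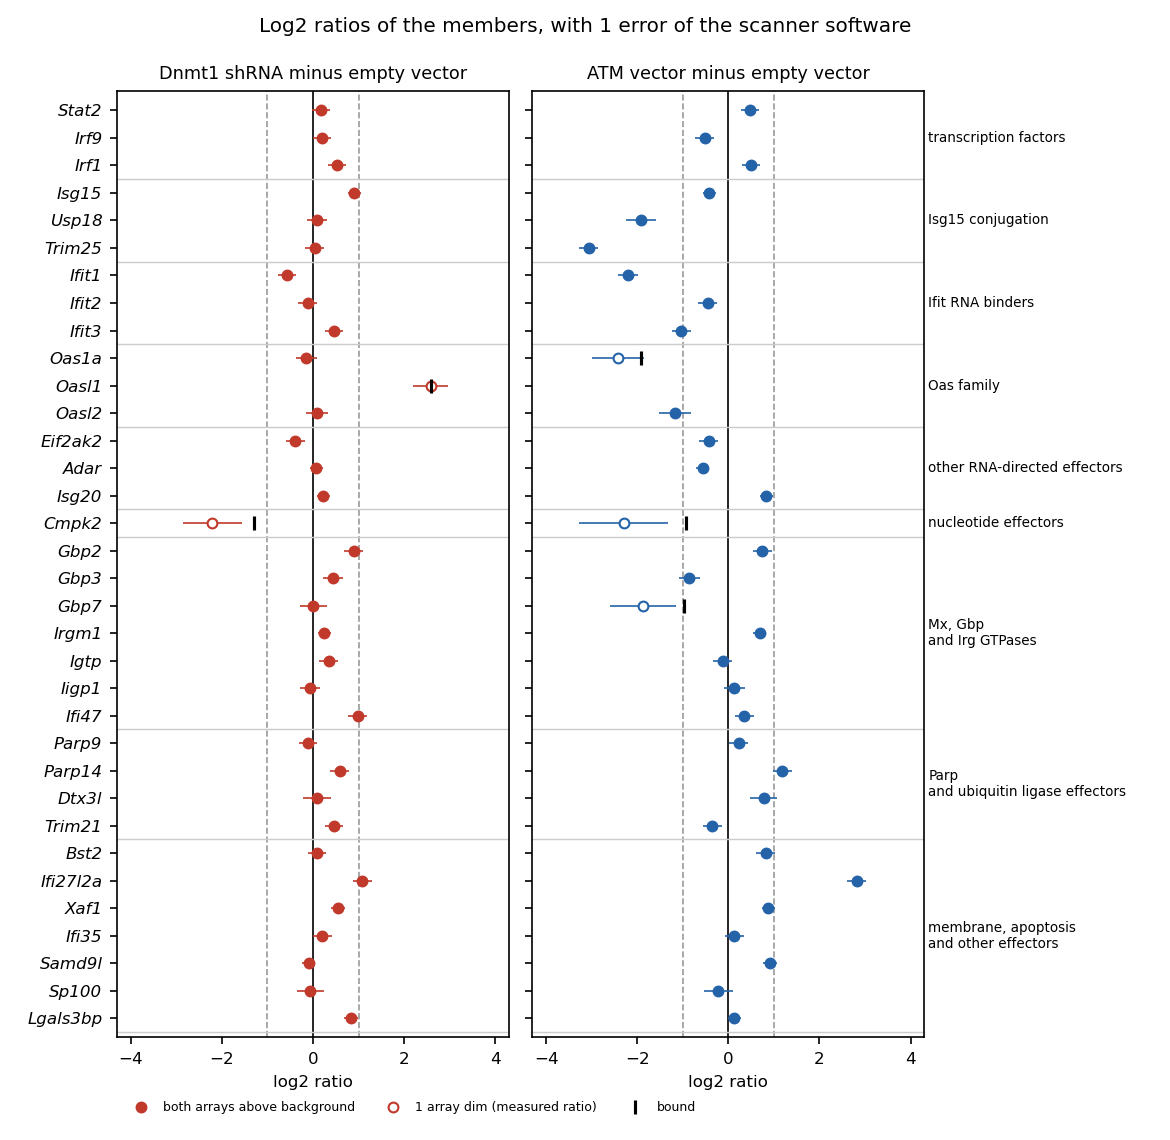
Log2 ratio of each of the 34 members on the Dnmt1 shRNA array (left) and the array labelled ATM vector (right), each minus the empty-vector array, with 1 measurement error; dashed lines mark 2-fold. Open circles have 1 array that is not well above background, and the black tick is the bound. With Dnmt1 shRNA 3 members lie past 2-fold and with the ATM vector 10 do.

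Side by side, 33 members were tested in both comparisons. By the measured ratios, Ifi27l2a was at least 2-fold higher in both and Cmpk2 at least 2-fold lower in both, and 23 were within 2-fold in both. Since both comparisons subtract the same empty-vector array, a high or low value of that array alone gives such a pattern. The same counts over all genes are not given here, so these numbers have no background to be read against. The members with an ISRE match in their window and a tested probe numbered 13. Their median log2 ratio was 0.25 with Dnmt1 shRNA and -0.42 with the ATM vector, where 9 of 13 ratios were below 0 and 4 were called lower (Ifit1, Ifit3, Oas1a and Gbp7). Over all genes 54.0% of ratios were above 0 there and 7.96% were called lower. Of these 4 calls, that of Gbp7 is lost with its bound and with normexp, and that of Ifit3 with normexp. The 15 members with a window but no match that were tested with the ATM vector had a median of 0.13, with 3 called lower (Trim25, Cmpk2 and Oasl2). With Dnmt1 shRNA, the 16 such members had a median of 0.15. No test of the difference was made.

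Other genes of the pathway were taken from 5 further lists. As background for the counts with bounds, 4.79% of all genes were higher and 1.81% lower with Dnmt1 shRNA. With the ATM vector these shares were 6.95% and 6.36%. Of 11 receptor and JAK-STAT genes tested with Dnmt1 shRNA, 0 were called with bounds, and of 10 tested with the ATM vector 1 was, Jak2, a kinase of the interferon gamma receptor. Jak2 gave 5701 with Dnmt1 shRNA, 11255 with the ATM vector and 3756 with the empty vector, which is a 3.00-fold difference with the ATM vector. Of 15 interferon genes with a probe, 7 were well above background on each array, and Ifna1, Ifna2, Ifna5, Ifna14, Ifnab and Ifnl3 were so on all 3. Their signals were low, from 42.4 (Ifna2, ATM vector) to 105.9 (Ifna5, empty vector). The lowest signals well above background were 26.2 to 35.3. Ifnb1 and Ifng stayed at background throughout. Ifna11, with 1 probe, gave 347.7 with the empty vector, a dim 5.2 with Dnmt1 shRNA and a dim 6.9 with the ATM vector. It was at least 13.3-fold lower with Dnmt1 shRNA and at least 10.4-fold lower with the ATM vector. The probes of the interferon alpha genes may bind transcripts of one another, as these genes are close copies. Of 12 negative regulators, 0 were called with Dnmt1 shRNA and 1 was lower with bounds with the ATM vector, Socs3, the feedback inhibitor of JAK kinases, with a log2 ratio of -1.16. Of 38 further interferon-stimulated genes tested with Dnmt1 shRNA, 1 was higher with bounds, the immunoproteasome subunit Psmb8, at a log2 ratio of 1.48. Of 37 such genes tested with the ATM vector, 4 were higher and 5 lower with bounds, beside 6.95% and 6.36% of all genes. Psmb8 had a log2 ratio of -1.40 there, so it differed from the empty vector in opposite directions on these arrays. The Trim family gene Trim34a was 3.998-fold lower with the ATM vector, while Tor3a (log2 ratio 1.52) and Uba7 (1.39), the activating enzyme of Isg15 conjugation, were higher. Of the further Oas, Gbp, Irg and Ifit genes, 1 of 12 was higher with Dnmt1 shRNA, the Irg gene Tgtp1, at a log2 ratio of 1.06, from a probe that may also bind its near copy Tgtp2. With the ATM vector 4 of 11 such genes were lower with bounds, Oas1c, Oas1e, Oas1f and Ifit3b, and 1 was higher, beside the same 6.36% and 6.95% of all genes. The median of these genes was 0.38 with Dnmt1 shRNA and -0.49 with the ATM vector.

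**Figure D5:**
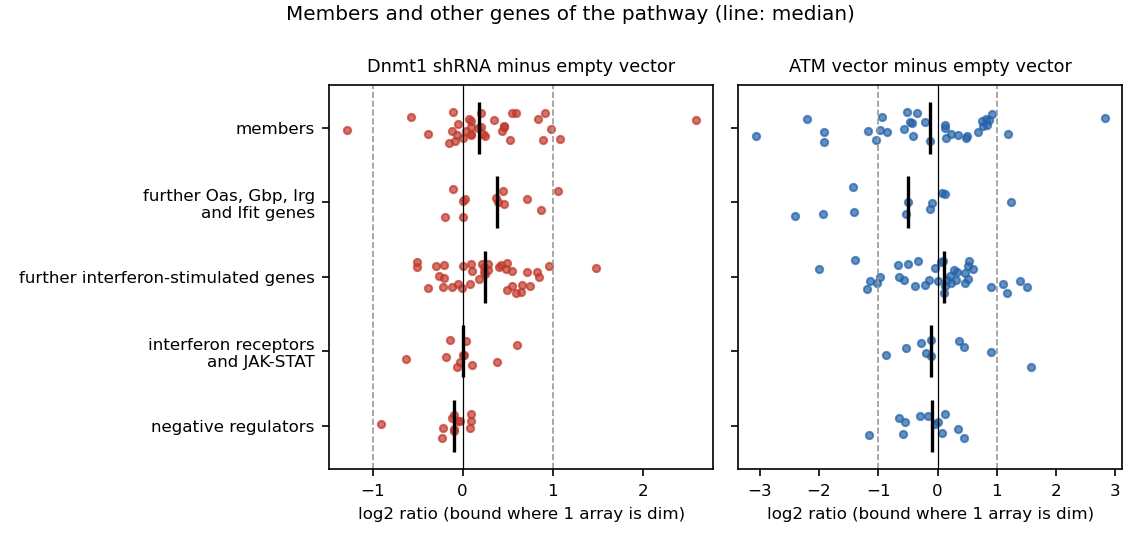
Log2 ratios (bounds where 1 array is dim) of the members and of 4 other gene lists of the pathway on the Dnmt1 shRNA array (left) and the array labelled ATM vector (right), each minus the empty-vector array; each point is a gene, black lines are medians and dashed lines mark 2-fold. The further Oas, Gbp, Irg and Ifit genes have a median of 0.38 on the left and -0.49 on the right.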

How the data were processed

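RNA of 3 samples was measured, 1 array per group, with groups taken from the transfection label. The authors deposited the scanner files of Agilent Feature Extraction 10.7.3.1 (named in the submitters' processing notes). Their processed signal is a linear intensity after background subtraction, unscaled between arrays, per the file headers. The error per spot and the marks for background, saturation and outliers, 0 or 1, are from the same software and deposited with it. The values of the authors' series matrix lay within 0.495% of that intensity.

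Control and outlier spots were left out (235, 167 and 228 outliers on the Dnmt1 shRNA, ATM vector and empty-vector arrays). The log2 signal was averaged per probe and the array's 75th percentile subtracted. A probe entered a comparison when either array put it well above background, and the entering probes of a gene were averaged. A bound sets a dim array at the higher of its lowest signal well above background (normalised 26.2, 33.5 and 35.3) and its own value. Of 39429 probes, 26412 matched 1 symbol of the RefSeq table of GRCm38.p6 by accession and 13017 none. Repeat spots of a probe differed by a median SD of 0.05 on the log2 scale. Different probes of a gene had a pooled SD of the log2 ratio of 0.21 with Dnmt1 shRNA and 0.33 with the ATM vector.

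The rule named members at least 2-fold different in either comparison, fixed pathway genes, and up to 4 genes per other list with the largest difference. Members and lists were chosen with earlier results of these data known. The calculation was tested on simulated data. For each result 10 alternatives were run; for normexp (limma 3.58.1, R 4.3.3, offset 50) the median spot signal replaced the mean signal. Python 3.11.15, numpy 2.4.6 and pandas 2.3.3 were used. The number of arrays limits the precision.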

Additional observations from a re-analysis of the deposited data

How the results depend on the processing

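No paired analysis was possible because each group is 1 array, and for the same reason no array could be left out and no slide fitted. With Dnmt1 shRNA the count of members at least 2-fold higher (2) was 1 with median scaling (6.07% of all genes) and 5 with housekeeping scaling (8.94%). Over probes well above background on all 3 arrays it was 1 (2.77%). The count lower (1) was 0 with normexp (0.527% of all genes) and 0 with that filter (0.657%), which leaves out Cmpk2 and Oasl1. The members' median of 0.19 was -0.050 with median scaling, which shifts all genes by -0.24; housekeeping scaling shifts them by 0.14 and no filter on dim probes by -0.12. The ATM vector median of -0.13 was -0.025 with normexp. With the ATM vector the count higher (2) was 1 with normexp (4.82% of all genes). The count lower (8) was 3 with normexp, where the share of all genes called lower was 4.29% and not 7.96%. Over probes well above background on all 3 arrays the count lower was 5 (4.23% of all genes). The other alternatives left these counts within 1.5 times. Of 3 members called with Dnmt1 shRNA, 1 was called under all alternatives (Oasl1, where tested); Ifi27l2a was at 0.85 with median scaling. Of 10 called with the ATM vector, 4 were (Ifi27l2a, Ifit1, Oas1a and Trim25). Each of the others fell under 2-fold with normexp, whose offset draws ratios towards 0 by construction, most at low signals. Among them, Usp18, Oasl2, Ifit3 and Parp14 were well above background on all 3 arrays. Normexp also changes the background estimate, and these effects were not told apart. The sign was the same under all alternatives for 17 of 34 members with Dnmt1 shRNA and 31 of 33 with the ATM vector. Signs and calls kept under all alternatives were not counted over all genes, so these counts have no background. Of all genes called with Dnmt1 shRNA, 77.5% were higher, against 65.8% with median scaling and 63.3% with no filter on dim probes. Cultures were not replicated, so no difference here carries an error between cultures.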
